A study of Homo sapiens with 4 samples.

Results

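SMRC1 is the protein database name of SMARCC1, also called BAF155. It is a core scaffold subunit of the SWI/SNF (BAF) complexes, which use ATP to slide or evict nucleosomes and so change how open the DNA is at enhancers and promoters. The subunit carries SANT and SWIRM domains, has a close paralog in SMARCC2 (BAF170), and holds the complex together rather than reading a DNA sequence of its own. In liver cells, complexes of this family work beside sequence-specific factors at regulatory elements. The 2 other proteins of the study are of a different kind: NFIC is a nuclear factor I protein that binds a defined DNA motif, and SATB1 is a chromatin organiser that binds AT-rich DNA.

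The SMRC1 library was made from HepG2, an established human liver cancer line with an abnormal number of chromosomes, grown without any treatment named in the labels. Crosslinking took 10 min in 1% formaldehyde. The series design sets the antibodies of this study beside published results obtained with commercial ones, which were not used here. All 29441 peaks of the authors' SMRC1 list were taken as members, out of 46380 peaks in the 3 lists. The SATB1 list, with 3296 peaks, and the NFIC list, with 13643 peaks, served as reference for the same measures. The SATB1 and NFIC libraries came from the same line, crosslinked in the same way, and an input library was named in the labels but not analysed here. Each antibody had 1 library, so no difference between lists could be tested. Intervals are exact Clopper-Pearson 95% intervals for shares and exact binomial 95% intervals for medians, and they cover counting error only. Positions are 1-based on hg19. No peak was assigned to a gene and no marker locus was checked, so the antibody label and the cell type label rest on the submitters' words.

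The SMRC1 list was long, moderately enriched and spread over all chromosomes. The authors' fold at the summit had a median of 4.08 and ran from 1.69 to 28.1. It sets the reads there, scaled to the control depth, over the local background, after a constant is added to each. The −log10 q, used below as the strength of a peak, had a median of 8.74. Fragments at the summit, recovered from the authors' fold and p-value, had a median of 45 and ran from 8 to 384, over a median local background of 8 control fragments. Fragments count at the depth of the ChIP library and background at that of the control, so dividing them does not give the fold. The whole list covered 20.5 Mb of the genome, against 7.25 Mb for NFIC and 1.52 Mb for SATB1.

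SMRC1 peaks were wide. The median width was 607 bp (interval 603 to 612), against 490 bp for NFIC and 399 bp for SATB1. The narrowest SMRC1 peak had 312 bp, the middle 50% lay between 433 and 841 bp, and the widest reached 5308 bp. The 3 lists shared nearly the same narrowest width, with 309 bp for SATB1 and 308 bp for NFIC, and parted at the upper end. Peaks of at least 1000 bp, called wide here, made up 15.4% of the SMRC1 list (14.97 to 15.80), 2.76% of the NFIC list (2.49 to 3.04) and 1.94% of the SATB1 list (1.499 to 2.473). Wide peaks held 30.3% of all the DNA that SMRC1 peaks covered.

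By class, 5729 SMRC1 peaks were narrower than 400 bp, 8681 had 400 to under 600 bp, 10502 had 600 to under 1000 bp, 4189 had 1000 to under 2000 bp and 340 had 2000 bp or more. The largest class was thus that of 600 to under 1000 bp, with 35.7% of the list. In the NFIC list the largest class was 400 to under 600 bp, with 41.1%, and in the SATB1 list it was the class under 400 bp, with 50.1%. The class of 2000 bp or more was almost confined to SMRC1 among these 3 lists: it held 1 NFIC peak and 2 SATB1 peaks.

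**Figure D1:**
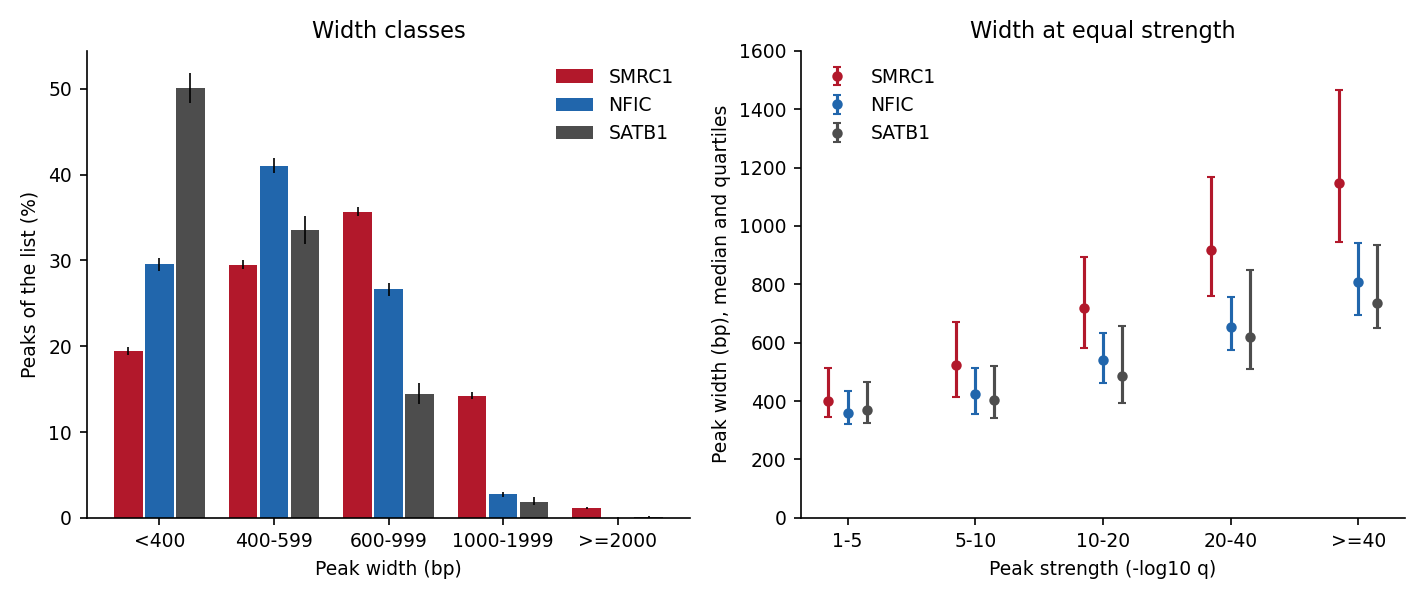
Left, share of each list's peaks (%, bars from 0, with exact 95% intervals) in 5 width classes (bp). Right, median width (bp, points) with quartiles (bars) of the peaks of each list within 5 ranges of −log10 q. SMRC1 had the smallest share under 400 bp and the largest share from 600 bp up, and its medians lay above those of both other lists in every range of strength.

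Width and strength went together within the SMRC1 list. The median fold was 3.36 in peaks under 400 bp, 3.79 at 400 to under 600 bp, 4.51 at 600 to under 1000 bp, 5.36 at 1000 to under 2000 bp and 6.29 from 2000 bp. The share with a −log10 q at or above 10 went from 3.40% in the narrowest class to 97.9% in the widest. The local background also went up with width, from a median of 6 control fragments under 400 bp to 13.7 from 2000 bp, and its part in the width was not tested. When the list was cut into 10 equal groups by strength, the median width was 381 bp in the weakest and 1086 bp in the strongest, and wide peaks made up 0.815% and 60.6% of them.

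The SMRC1 peaks were wider than the reference peaks at equal −log10 q as well. A −log10 q depends on depth and background, which were not recovered for the reference lists, so it does not match peaks for enrichment. At a −log10 q of 1 to 5 the median widths were 401 bp for SMRC1, 360 bp for NFIC and 370 bp for SATB1. Between 10 and 20 they were 718, 539.5 and 484.5 bp. From 40 up they were 1147.5, 809 and 737 bp, and wide peaks then made up 69.2% of 1732 SMRC1 peaks, 17.6% of 1105 NFIC peaks and 26.3% of only 19 SATB1 peaks. The order of SMRC1 above both other lists therefore appeared in all 5 ranges of strength, with the smallest distance among the weakest peaks.

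Peaks of like strength but unlike width also differed in background, spacing and centring. Among SMRC1 peaks with a −log10 q of 10 to 20, 1991 were narrower than 600 bp and 1216 were wide. The narrow ones had a median fold of 4.76 over a background of 7.49 control fragments, and the wide ones a fold of 4.33 over a background of 11. The nearest other SMRC1 peak lay at a median of 10.96 kb from the narrow peaks and 6.52 kb from the wide ones. Summits lay in the central part of the peak in 74.4% of the narrow and 39.8% of the wide ones. An NFIC summit within 200 bp was nearly as frequent in both, as given below. Wide peaks were thus closer to other peaks and less centred than narrow peaks of the same range of strength.

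Of all SMRC1 peaks, 23.7% overlapped an NFIC peak by at least 1 bp, which involved 51.9% of the NFIC list, and 8.61% overlapped a SATB1 peak, which involved 78.5% of the SATB1 list. These shares went up with the width of the SMRC1 peak. NFIC peaks overlapped 9.08% of SMRC1 peaks under 400 bp, 14.6% at 400 to under 600 bp, 28.2% at 600 to under 1000 bp, 47.2% at 1000 to under 2000 bp and 72.1% from 2000 bp (interval 67.0 to 76.8). SATB1 peaks overlapped 3.12% in the narrowest class and 32.4% in the widest. A wide peak is a larger target for overlap, so summits were compared too. An NFIC summit lay within 200 bp of the SMRC1 summit in 7.21% of the narrowest peaks, 35.7% at 1000 to under 2000 bp and 44.1% from 2000 bp. For SATB1 summits these shares were 2.62%, 13.6% and 15.9%. The increase with width therefore appeared in both measures, and was smaller between summits. Width ran with strength, and at a −log10 q of 10 to 20 an NFIC summit lay within 200 bp in 16.7% of peaks under 600 bp and 17.9% of wide peaks. At 20 to 40 these shares were 24.0% of 250 and 36.8% of 1553 peaks. For SATB1 summits they were 7.48% and 12.2% at 10 to 20, and 13.6% and 14.7% at 20 to 40.

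The 340 peaks of at least 2000 bp lay on 23 chromosomes. Chromosome 2 held 42 of them, chromosomes 1 and 17 held 36 each, chromosome 6 held 26, chromosome X held 2 and chromosome 21 held 1. These counts are not shares of each chromosome's peaks. The whole list had 1642 peaks on 1p and 1095 on 1q, but only 356 on 17p and 1290 on 17q. Of the 340 peaks, 43 reached 3000 bp and 8 reached 4000 bp. They made up 1.15% of the list and held 12 of the 100 SMRC1 peaks with the highest −log10 q, and their folds ran from 2.60 to 17.6. Another SMRC1 peak lay within 5 kb of 196 of them (57.6%), and 5 of them were isolated by at least 100 kb on each side.

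The widest SMRC1 peak, of 5308 bp, lay at chr20:30191648-30196955 in band 20q11.21. It had 246 fragments at its summit over a background of 26, a fold of 7.11, and its summit at position 30196446, near the downstream end. It overlapped 3 NFIC peaks and 5 SATB1 peaks. This stretch was thus listed as 1 peak for SMRC1 and as several for each of the others.

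The next in width, of 5139 bp, lay at chr7:5463011-5468149 in band 7p22.1 and had a low fold of 3.65, with 88 fragments over a background of 18. A peak of 4915 bp at chr20:45985084-45989998 in 20q13.12 had a fold of 5.48. In 10q22.2, a peak of 4388 bp at chr10:77161103-77165490 had a fold of 10.1 over a background of 8.42. It had no other SMRC1 peak for 139014 bp upstream, but the next lay 3576 bp downstream. A large width therefore came with folds from 3.65 to 10.1 in these 4 peaks alone.

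Of the other 6 of the 10 widest peaks, a pair lay inside the clusters with the most peaks, described below. They were the peak of 4336 bp at chr17:53361043-53365378 in 17q22 and that of 4183 bp at chr1:234745771-234749953 in 1q42.3, with folds of 5.20 and 10.8. The remaining 4 lay at chr2:208709598-208713710 in 2q33.3 (4113 bp), chr14:69259339-69263361 in 14q24.1 (4023 bp), chr17:57914548-57918521 in 17q23.1 (3974 bp) and chr19:49464910-49468854 in 19q13.33 (3945 bp). The 14q24.1 and 17q23.1 peaks lay in runs of 6 and 7 peaks with gaps of at most 10 kb, and the widest peak of all in a run of 5. The 17q23.1 peak had its summit close to its upstream end, at a relative position of 0.0759. The 14q24.1 peak was the only one of the 10 widest without an NFIC peak, and it held 1 SATB1 peak.

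Neighbouring SMRC1 peaks lay close together. The median gap from the end of a peak to the start of the next on the same chromosome was 22.7 kb (interval 22.2 to 23.3), over 29417 gaps. In the shorter lists it was 64.0 kb for NFIC and 253 kb for SATB1. A longer list has shorter gaps by its number alone, so the order of the medians describes list length as well as placement: with each list held to its 3296 strongest peaks, the medians were 262 kb for SMRC1, 280 kb for NFIC and 253 kb for SATB1, with overlapping intervals for SMRC1 and the other lists.

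The gaps were very uneven. The mean SMRC1 gap was 99.4 kb, so the median was 0.229 of the mean, against 0.299 for NFIC and 0.286 for SATB1. This ratio was not computed at equal list lengths, so its order between lists may describe list length as well. The shortest gap was 48 bp and occurred 18 times, and the shortest gaps of the other lists were 48 and 51 bp. By class, 2394 gaps (8.14%) were under 1 kb, 4071 were 1 to 5 kb, 3248 were 5 to 10 kb and 10232 (34.8%) were 10 to 50 kb. A further 4051 gaps were 50 to 100 kb, 4289 were 100 to 500 kb and 1132 (3.85%) were at least 500 kb.

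**Figure D2:**
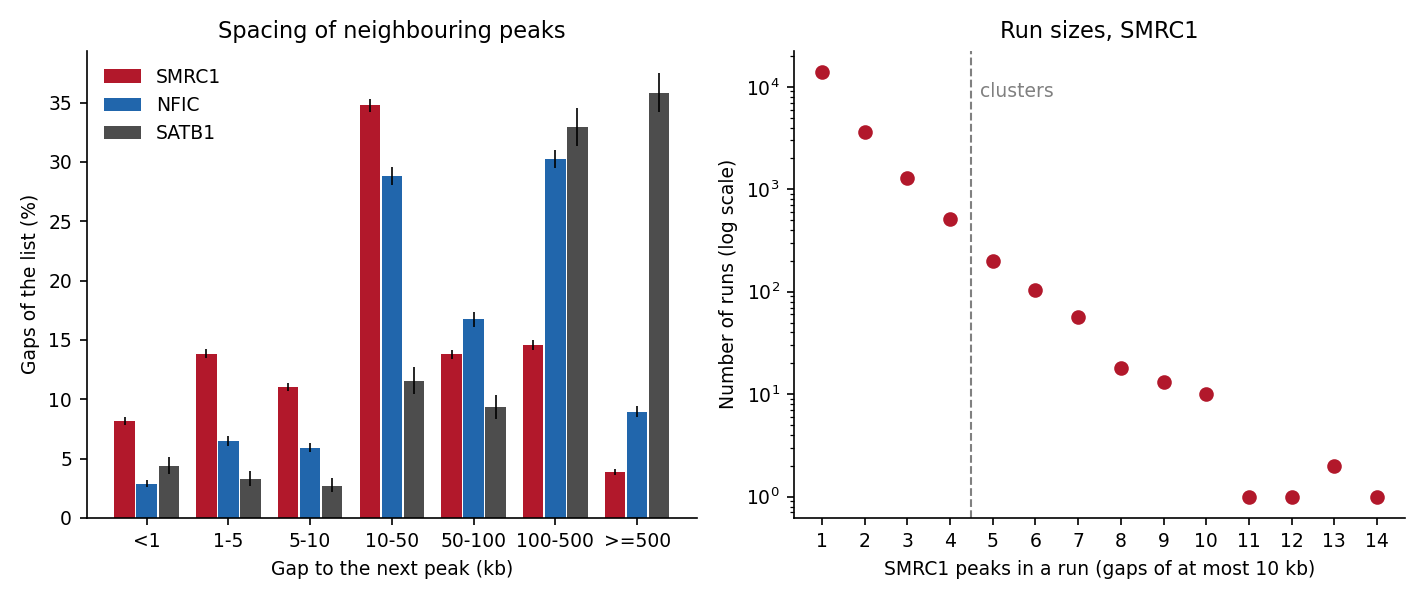
Left, share of each list's gaps between neighbouring peaks (%, bars from 0, with exact 95% intervals) by gap length (kb). Right, number of runs of SMRC1 peaks (log scale) by the number of peaks in the run, where gaps within a run are at most 10 kb; the dashed line marks 5 peaks, from which a run was called a cluster. Gaps of 10 to 50 kb were the largest SMRC1 class, and runs went from 13945 lone peaks to 1 run of 14.

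Gaps under 200 bp were more frequent, step by step, than slightly longer ones. No gap was shorter than 48 bp, so the first step below was only partly open. In steps of 100 bp, 391 SMRC1 gaps were under 100 bp, 424 were 100 to 199 bp, 288 were 200 to 299 bp and 244 were 300 to 399 bp. Each step from 400 bp to under 1000 bp then held between 157 and 195 gaps, and the step from 2000 to 2099 bp held 104. In all, 4512 SMRC1 peaks (15.3%, interval 14.9 to 15.7) had another peak less than 1 kb away, against 8.31% in the SATB1 list and 5.55% in the NFIC list. These shares depend on list length too and were not computed at equal lengths.

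When peaks with a gap under 1 kb were joined, the 29441 SMRC1 peaks became 27047 regions, of which 2118 came from at least 2 peaks. Regions of at least 2000 bp then numbered 1180 (4.36% of the joined regions), against 78 (0.589%) in the NFIC list and 19 (0.603%) in the SATB1 list. Regions of at least 5000 bp numbered 20 in the SMRC1 list and 0 in each of the others. Joining was not repeated at equal list lengths, so these counts and shares describe list length as well. The longest joined region, of 14930 bp, lay at chr1:234735024-234749953 in 1q42.3 and was made of 6 peaks.

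Peaks with a close neighbour differed from remote ones. From those with a neighbour under 1 kb to those with none within 500 kb, the median width went from 621 to 492.5 bp, and wide peaks from 19.4% to 4.55%. The median fold went the other way, from 3.71 to 4.95. Neither change was steady. The median width was largest at 1 to 5 kb, at 647 bp, and the fold lay between 4.08 and 4.14 from 1 to 100 kb. Between the same end classes, fragments at the summit went from 48 to 28 and the local background from 9.36 to 3.28 control fragments. The part of the background in these differences was not tested. Isolated peaks, with no other SMRC1 peak within 100 kb, numbered 1908 (6.48%), against 18.9% of the NFIC list and 51.5% of the SATB1 list. A longer list has fewer isolated peaks by its number alone, and these shares were not computed at equal list lengths.

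Neighbours were hardly alike in width or strength. Across pairs of neighbours under 1 kb apart, the Spearman correlation of their widths was 0.10 over 2394 pairs, and across pairs 10 to 50 kb apart it was 0.03 over 10232 pairs. For −log10 q it was 0.02 in both classes. Both peaks were wide in 4.68% of the pairs under 1 kb apart and in 0.883% of those at least 500 kb apart. Wide peaks were themselves more frequent beside close neighbours, as given above, so this contrast alone does not measure likeness. Pairs share the library and, at short range, the local background, so these values are descriptions across pairs that are not independent.

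Clusters, defined as runs of at least 5 SMRC1 peaks with gaps of at most 10 kb, numbered 405 and held 2437 peaks, or 8.28% of the list (7.97 to 8.60). The NFIC list had 23 clusters with 0.894% of its peaks and the SATB1 list had 9 with 1.46%. Of the SMRC1 clusters, 198 had 5 peaks, 161 had 6 or 7, 46 had at least 8 and 15 had at least 10. They spanned 5.47 to 66.1 kb with a median of 21.8 kb, and together 9.44 Mb. Lone peaks, with no other within 10 kb, numbered 13945 (47.4%). The number of clusters depends on list length and on the weak peaks: held to the 13643 strongest peaks, a setting chosen after seeing the data, the SMRC1 list had 38 clusters with 1.55% of its peaks. Held to 3296 it had 2 clusters with 0.334%, below the 1.46% of the SATB1 list, so the order of SMRC1 and SATB1 turned, while the NFIC list had 0.

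Clustered peaks were wider and stood on a higher background than isolated ones. The median width was 689 bp in clusters and 522 bp in isolated peaks, and wide peaks made up 23.7% and 8.07%. The median fold was lower in clusters, at 3.92 against 4.63, while the median −log10 q was higher, at 9.29 against 7.58. Fragments at the summit had medians of 50 and 32, and the background had medians of 9.05 and 5 control fragments, whose part in these differences was not tested. NFIC peaks overlapped 26.4% of clustered and 21.3% of isolated SMRC1 peaks. An NFIC summit lay within 200 bp in 19.9% and 18.0% of them, with overlapping intervals. For SATB1 the order was the other way: its peaks overlapped 7.39% of clustered and 8.75% of isolated SMRC1 peaks. A SATB1 summit lay within 200 bp in 5.05% and 6.66% of them, also with overlapping intervals.

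Most clusters mixed strong and weak peaks. At least 1 peak with a −log10 q of 10 or more was present in 391 of the 405, all peaks reached it in 9, and none did in 14. The widest peak of a cluster was a median of 3.24 times as wide as its narrowest, and the highest fold was 2.32 times the lowest. The strongest peak was also the widest in 210 clusters (51.9%). It stood at an end of the cluster in 125 (30.9%), where the 2 end positions made up a mean of 34.7% of the positions of a cluster. A wide peak was present in 305 clusters (75.3%), a peak of at least 2000 bp in 63, and no peak overlapping NFIC in 75.

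The cluster with the most peaks, 14 in 66.1 kb, lay at chr17:53342104-53408239 in band 17q22. Its peaks had folds from 2.28 to 5.20 and were mostly narrow, with a median width of 576.5 bp. The highest was the peak of 4336 bp named above, with 166 fragments and a −log10 q of 46.0, and 3 other peaks of the cluster overlapped NFIC. Between the 10th and 11th peaks lay 9987 bp, just inside the limit of 10 kb. The run was therefore held together by a weak peak with a fold of 2.28, since 7110 bp lay on its upstream side.

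The next, with 13 peaks in 44.5 kb, lay at chr1:234735024-234779509 in band 1q42.3, and its peaks covered 45.3% of its length. It opened with a peak of 2991 bp and a fold of 9.22, followed after 201 bp by one of 2650 bp with a fold of 3.90. The peak of 4183 bp with a fold of 10.8 was the 6th, and 1 of 3583 bp with a fold of 5.46 was the 8th. The 12th, of 1086 bp, had a fold of 9.11 at the far side. Here 4 of 13 peaks were at least 2000 bp wide, 3 overlapped NFIC and 2 overlapped SATB1. A second cluster with 13 peaks was counted and is not named here.

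The cluster in 19p13.3, at chr19:1244603-1292013, held 12 peaks in 47.4 kb. It had the most reference peaks of the 10 largest clusters: 7 of its 12 peaks overlapped NFIC and 6 overlapped SATB1. Among its first 5 peaks, all overlapped NFIC, and the 3rd and 4th had folds of 7.98 and 8.41. The last 3 peaks, with folds of 6.76, 5.69 and 2.39, overlapped neither list.

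Chromosome 3 held a pair of the 10 largest clusters. The one at chr3:149071600-149107108 in 3q25.1 had 11 peaks in 35.5 kb, and its strongest, of 2283 bp, had a fold of 10.2, 160 fragments and a −log10 q of 78.1. That at chr3:193830270-193859951 in 3q29 had 10 peaks in 29.7 kb, led by a peak of 2186 bp with a fold of 9.54 that began 53 bp after the one before it. In both, 3 peaks overlapped NFIC and 1 overlapped SATB1.

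**Figure D3:**
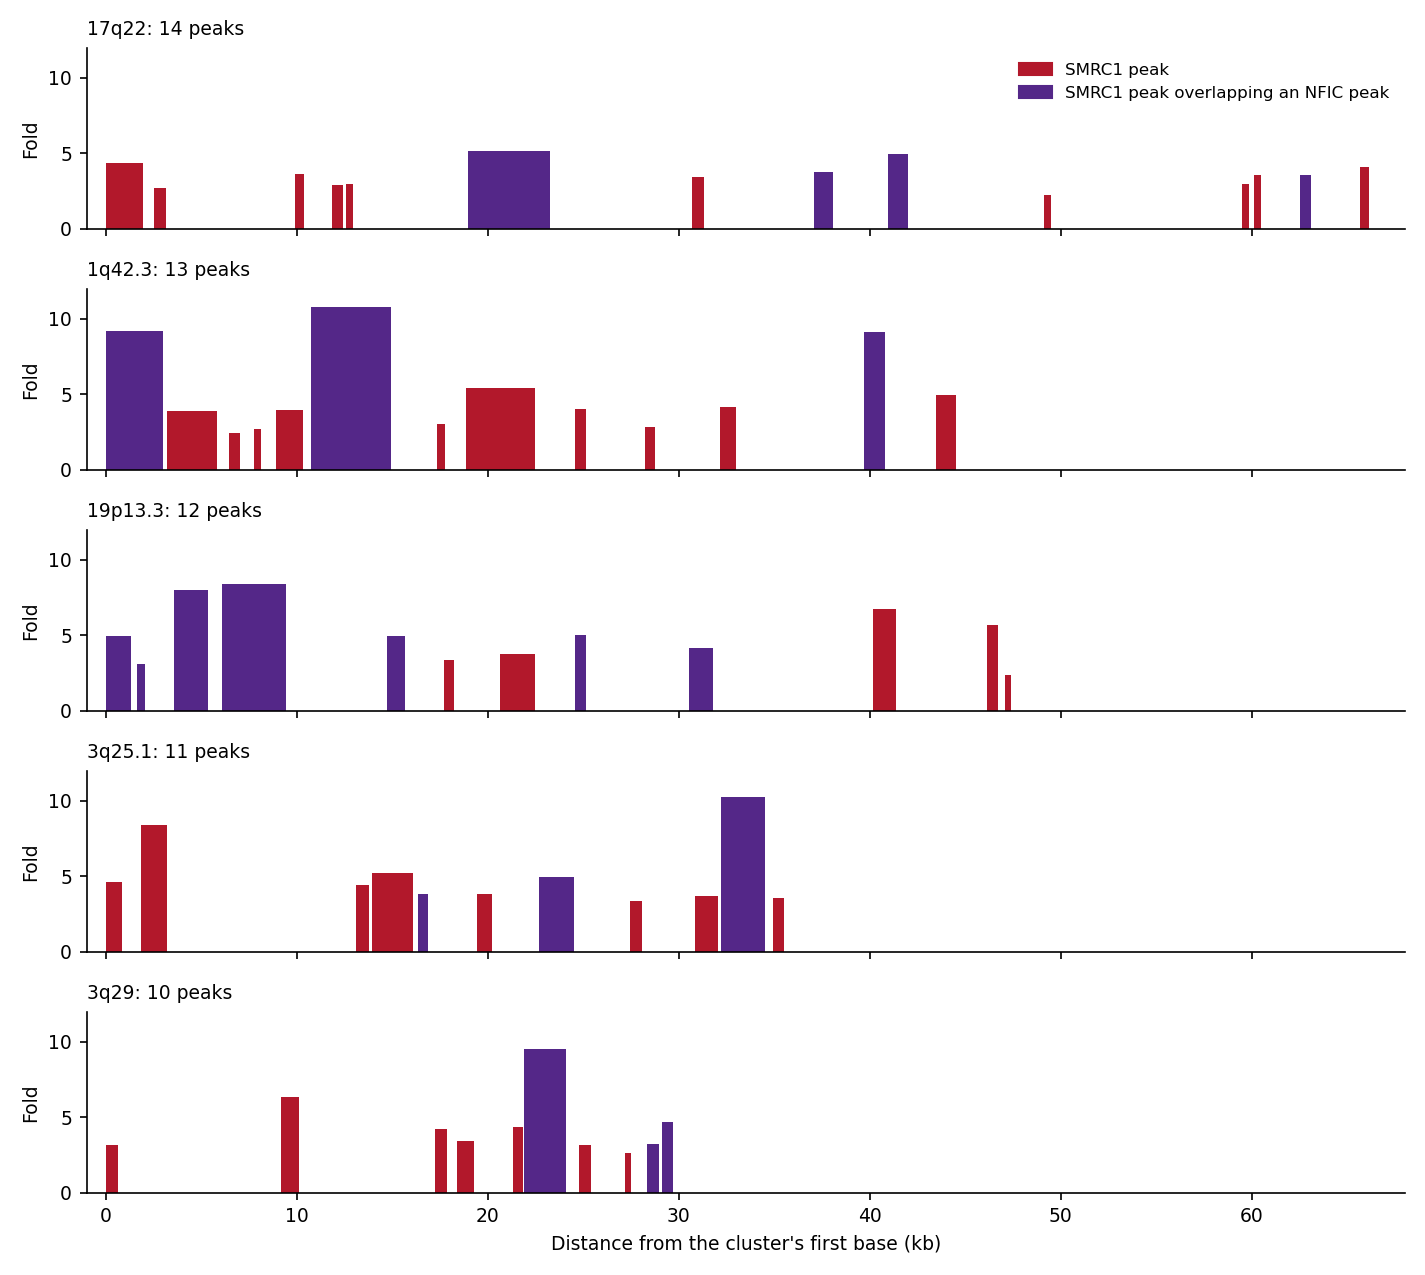
Peaks of 5 of the SMRC1 clusters with the most peaks, drawn to scale by distance from the cluster's first base (kb); each bar is 1 peak, its height is the authors' fold, and purple marks overlap with an NFIC peak. In the 1q42.3 panel 3 peaks stand at a fold of 9.11 to 10.8 and the rest at 5.46 or less, while in the 17q22 panel no peak exceeds 5.20.

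The other 4 named clusters had 10 peaks each. That at chr20:62667167-62697628 in 20q13.33 had low folds, with a median of 2.77, none above 4.06 and a median background of 15.3 control fragments. Its highest −log10 q was 19.7. That at chr2:11482582-11517098 in 2p25.1 had a similar background of 16.5 with a median fold of 3.83, and its strongest peak had 167 fragments and a fold of 7.45. Those at chr14:65693463-65725712 in 14q23.3 and chr22:50328566-50364938 in 22q13.33 stood on lower backgrounds of 9.20 and 7.74, with median folds of 4.08 and 4.49. High and low backgrounds thus both occurred among the largest clusters.

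The tightest clusters were small. At chr9:94181118-94187001 in 9q22.31, 6 peaks lay within 5.88 kb and covered 61.0% of it. At chr7:92460971-92466440 in 7q21.2, 5 peaks lay within 5.47 kb and covered 72.2%, with no fold above 4.34 and no NFIC or SATB1 peak. The other tight clusters lay at chr1:19333535-19340493 in 1p36.13, chr16:53082119-53090603 in 16q12.2 and chr13:93876726-93884447 in 13q31.3, with 5, 6 and 5 peaks. The 13q31.3 cluster had a peak with a fold of 11.3, and the highest fold in the 16q12.2 cluster was 4.61.

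Summits lay near the middle of SMRC1 peaks. The relative position of the summit, 0 at the upstream end and 1 at the downstream end, had a median of 0.495, with quartiles at 0.396 and 0.596. It fell between 0.4 and 0.6, called central here, in 14711 peaks (49.97%, interval 49.40 to 50.54), against 57.8% of NFIC and 40.7% of SATB1 peaks. In 325 peaks (1.104%) it lay below 0.1 or above 0.9. The median distance from the midpoint was 59.5 bp, against 40.5 bp for NFIC and 51 bp for SATB1, so by distance SMRC1 summits were farther out than those of SATB1, whose peaks were narrower.

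**Figure D4:**
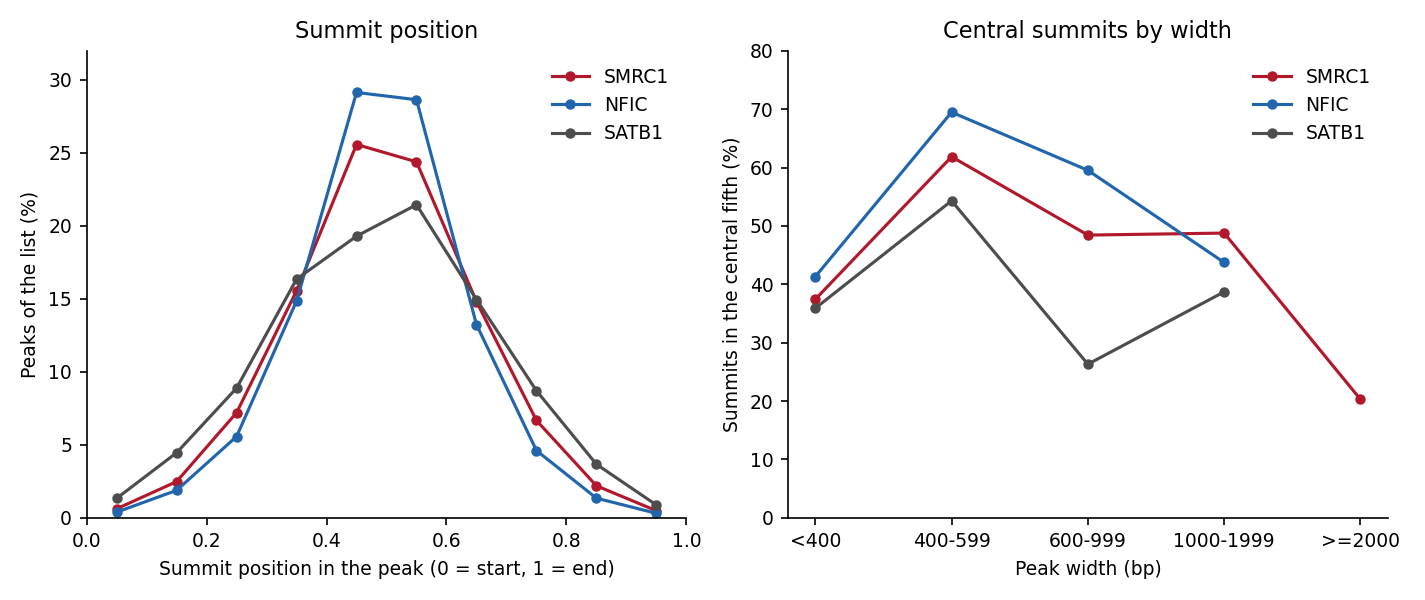
Left, share of each list's peaks (%) by summit position within the peak (0 start, 1 end). Right, share of peaks with a central summit (relative position 0.4 to 0.6, %) by width class (bp); classes of the reference lists from 2000 bp, with 1 and 2 peaks, are not drawn. SMRC1 lay between NFIC and SATB1 on the left, and its central share fell to 20.3% in the widest class.

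The central share varied with width. It was 37.4% in SMRC1 peaks under 400 bp, 61.8% at 400 to under 600 bp, 48.4% at 600 to under 1000 bp, 48.8% at 1000 to under 2000 bp and 20.3% from 2000 bp. The NFIC list had the same highest class, with 69.5%, and 43.7% at 1000 to under 2000 bp. The median distance from the midpoint in SMRC1 peaks from 2000 bp was 450 bp. Across the groups of equal number by strength, the central share went from 29.7% in the weakest to 61.2% in the strongest SMRC1 peaks. The strongest peaks were thus the most often centred, while the widest class, which had the highest median strength, was the least often centred.

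Summits leaned slightly toward a close neighbour. Of 4220 SMRC1 peaks with a gap under 1 kb on 1 side only, 2308 (54.7%, interval 53.2 to 56.2) had the summit on the side of that neighbour. Over all peaks the share on the side of the nearer neighbour was 50.6% (50.01 to 51.16). In the NFIC list the share beside a close gap was 48.2% (44.5 to 51.8), and in the SATB1 list it was 56.0% (49.7 to 62.1). Along the chromosome, 51.4% of SMRC1 summits lay in the upstream part of their peak (50.9 to 52.0), and 51.8% of NFIC summits did so.

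Peak density differed between chromosome arms by a factor of 7.93 (counting interval 6.92 to 9.10). The interval does not allow for the choice of this pair of arms as the densest and the sparsest. Over the 41 arms of at least 10 Mb, without Y and with centromeric, variable and stalk bands left out, the median was 10.3 SMRC1 peaks per Mb. The densest were 19p with 29.1 per Mb, 17q with 23.2, 19q with 19.8, 22q with 18.5 and 20q with 18.4. The sparsest were Xq with 3.66, 5p with 4.77, Xp with 5.87, 9p with 5.88 and 4q with 5.94. On whole arm lengths 17q led with 22.6 per Mb and 19p followed with 22.3. Chromosomes 17, 19 and 22 are known to be rich in genes, which is background and was not measured here.

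**Figure D5:**
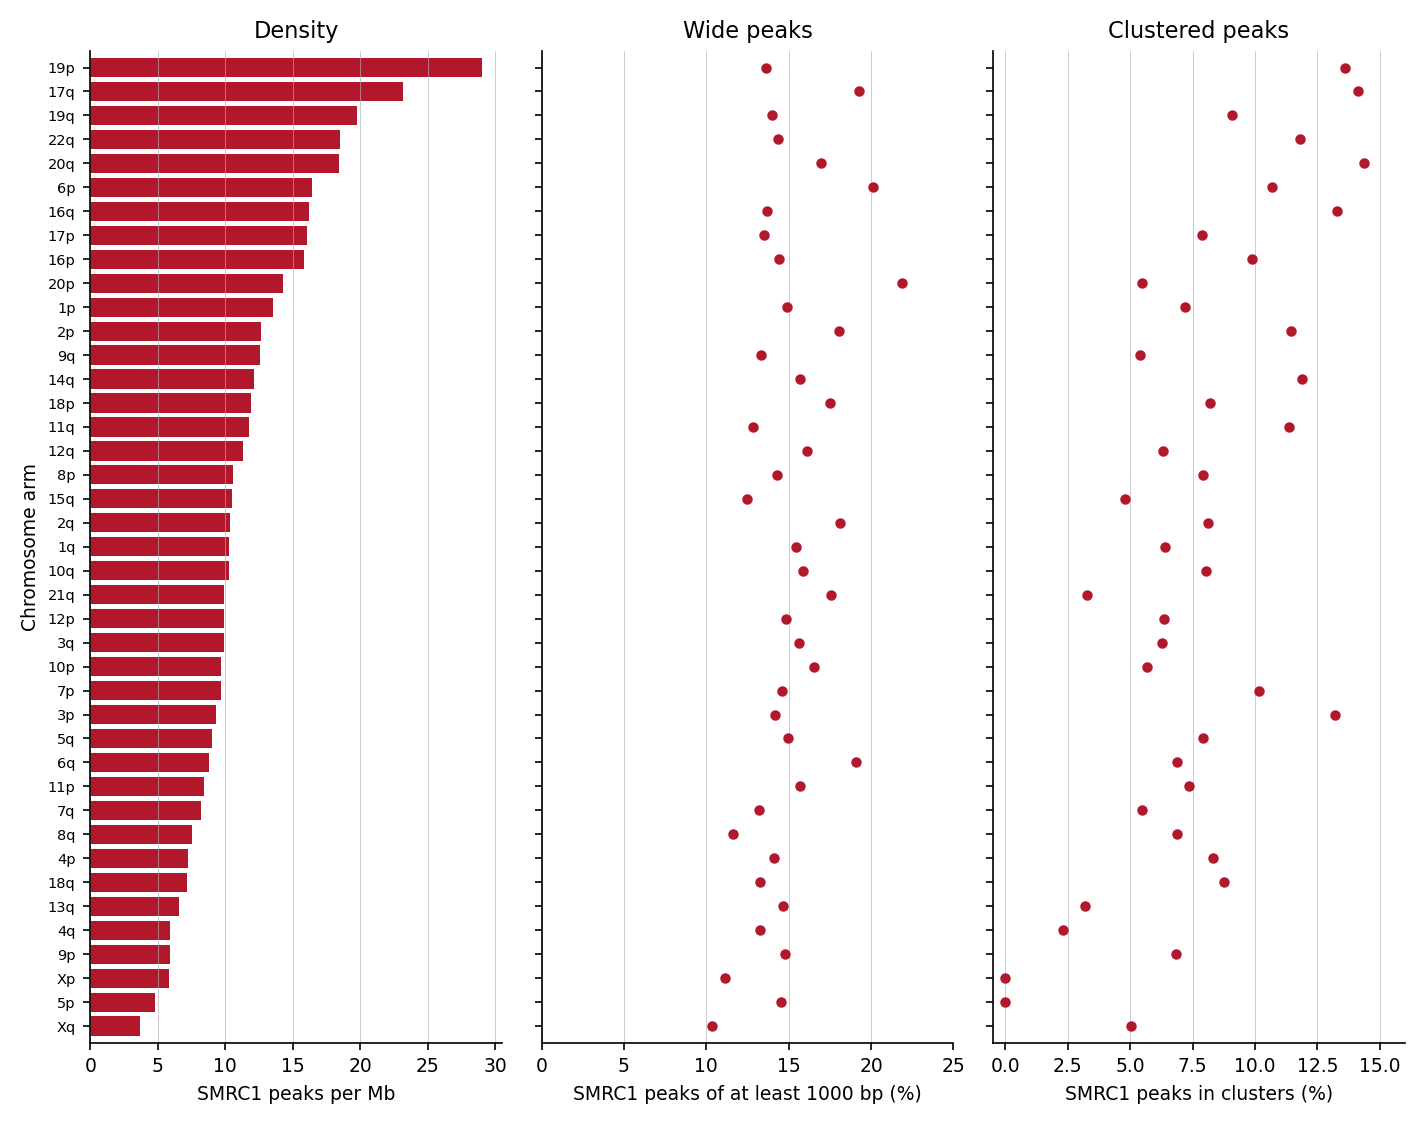
SMRC1 peaks per Mb (bars from 0), share of SMRC1 peaks of at least 1000 bp (%) and share of SMRC1 peaks in clusters (%) for each of 41 chromosome arms, sorted by density. Density fell from 29.1 per Mb on 19p to 3.66 on Xq; the wide share was highest on 20p (21.9%) and the clustered share on 20q (14.4%).

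The arms of 1 chromosome could differ. Density on 6p was 1.87 times that on 6q, and on 18p 1.66 times that on 18q. On 9p it was 0.468 of that on 9q and on 5p 0.530 of that on 5q. Of 18 chromosomes with both arms measured, 9 were denser on the short arm and 9 on the long arm.

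Wide peaks were not simply most frequent where peaks were dense. The clustered share followed density more closely, and the fixed gap limit of 10 kb ties clusters to density by construction. Wide peaks made up 21.9% of the SMRC1 peaks of 20p, 20.1% on 6p, 19.3% on 17q and 19.1% on 6q, against 13.6% on the densest arm, 19p. They were least frequent on Xq, with 10.4%, and Xp, with 11.1%, and the median arm had 14.7%. Clustered peaks made up 14.4% on 20q, 14.1% on 17q and 13.6% on 19p, while 5p and Xp had no cluster among 220 and 341 peaks. A cluster takes at least 5 peaks, so such a count of 0 sets no close limit on the share. The arm 3p, with a density of only 9.31 per Mb, had 13.2% of its peaks in clusters.

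Across the 41 arms, SMRC1 density ran with NFIC density (Spearman 0.97, Pearson 0.98) and SATB1 density (0.94 and 0.95). With the clustered share the correlations were 0.62 and 0.68, and with the wide share 0.31 and 0.29. The median local background of an arm ran with density (0.79 and 0.65) and with the wide share (0.47 and 0.66). These are descriptions over arms that share the library, its depth and, as far as known, the control. The part of the background in the differences between arms was not tested.

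Chromosomes 2, 6, 14, 16, 17 and 20, of which HepG2 is known to carry extra material, were set beside the others. The median background was 10.3 control fragments on these 6, 7.18 on the other autosomes and 4 on X. Wide peaks made up 17.6% of 9546 SMRC1 peaks (16.9 to 18.4) on the 6, 14.4% of 19195 (13.9 to 14.9) on the other autosomes and 10.8% of 679 (8.52 to 13.3) on X. Clustered peaks made up 10.6%, 7.32% and 2.50%. Fragments at the summit had medians of 54, 43 and 28, and the folds 3.85, 4.17 and 4.71, in the opposite order. Copy number was not measured here, and its part was not tested. In the NFIC list wide peaks made up 3.63%, 2.29% and 1.70% of the same sets of chromosomes.

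In windows of 1 Mb, the SMRC1 list left 407 of 2790 empty (14.6%), against 21.5% for NFIC and 52.0% for SATB1. A longer list leaves fewer empty windows by its number alone. The median window held 8 SMRC1 peaks, and the fullest 279 windows held 31.7% of the list. The fullest of all, with 59 peaks, was chr17:79000001-80000000 near the end of 17q, which was also the fullest window of the SATB1 list, with 23 peaks.

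By Giemsa stain, density was 13.2 SMRC1 peaks per Mb in unstained bands, 15.3 in the palest stained class and 3.98 in the darkest. Dark bands are known for few genes and AT-rich DNA. Isolated peaks made up 4.95% of the peaks in unstained bands and 14.6% in the darkest. The median width, by contrast, lay between 598 and 611 bp in all 5 stain classes, and wide peaks made up between 14.65% and 16.05%. Density and isolation therefore varied with the stain while width hardly did.

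The longest stretches without a SMRC1 peak, outside centromeric, variable and stalk bands, lay on 3 chromosomes. The longest, of 7.94 Mb, was chrX:139016212-146957340 in bands Xq27.1 to Xq27.3, and it held 1 NFIC peak. A stretch of 6.44 Mb at chrX:31374963-37817837, from Xp21.2 to Xp11.4, held 4 NFIC peaks. That of 6.36 Mb at chr21:19310456-25674784 in 21q21.1 to 21q21.2 held neither a NFIC nor a SATB1 peak. On chromosome 13, stretches of 5.80 Mb at chr13:53226904-59026003 and 5.56 Mb at chr13:62239677-67804475 held 1 and 2 NFIC peaks. None of the 5 held a SATB1 peak.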

How the data were processed

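HepG2 chromatin was assayed by ChIP-seq with antibodies against SMRC1, SATB1 and NFIC, 1 library each, and the deposited peak lists were analysed. The genome build hg19 and the programs Bowtie 1.1.2, MACS2 2.1.1, SAMtools and deepTools are named, per the submitters' processing notes; which settings and control were used is not given in the sources used here. The deposited lists have no header and 10 columns in narrowPeak order. In all but 2 SMRC1 peaks the deposited score is the integer part of 10 times −log10 q. The deposited fold was computed by the authors. It was taken as summit reads, scaled to the control depth, over local background, with a constant added to each. Both deposited −log10 columns, of p-values and of q-values, come from the authors' peak caller, with a lowest −log10 q of 1.01 for SMRC1. These values described, ranked, grouped and filtered peaks, and the fold and p-value also served to recover fragments.

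Summit fragments and background of SMRC1 peaks were recovered by solving the peak caller's expressions for fold and p together, with fragments whole within 0.01. Exactly 1 solution was found for 28647 peaks (97.3%), at a ChIP to control depth of 1.29; the absolute depth is unknown. The calculation was tested on simulated data. Widths, gaps, clusters, summits and arms were computed in Python 3.11.15 (pandas 2.3.3, numpy 2.4.6, matplotlib 3.10.9, scipy 1.17.1), with chromosome lengths from GenomeInfoDb 1.38.1 and bands from circlize 0.4.16 in R 4.3.3. The medians of fragments and background use the peaks with 1 solution.

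The named loci are the 10 widest peaks, the 10 clusters with the most peaks, the 5 tightest clusters, the 5 longest gaps and the 5 densest and sparsest arms; some loci were counted but are not named. The members, measures and rules were chosen with earlier results of these data known. Planned results on genes, promoters, markers and sequence were not analysed here, since they needed an hg19 annotation or genome. The alternatives were stronger peaks, equal list lengths, other cluster and width limits, other distance measures, whole arms and fewer chromosomes.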

Additional observations from a re-analysis of the deposited data

Results flagged for a closer look

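In 3 measures the difference between clustered and isolated peaks had opposite signs in the SMRC1 list and in a reference list. Each compares medians or shares within 1 library per antibody, and none of these differences between lists was tested. The median fold of clustered minus isolated peaks was −0.71 in the SMRC1 list (2437 and 1908 peaks) and 0.15 in the SATB1 list (48 and 1697 peaks), a difference of −0.86. The median −log10 q of clustered minus isolated peaks was 1.71 for SMRC1 and −0.87 for SATB1, a difference of 2.58. The share of central summits in clustered minus isolated peaks was −3.86 percentage points for SMRC1 and 1.40 points for NFIC (122 and 2579 peaks), a difference of −5.26 points.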

How the results depend on the processing

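With peaks of −log10 q of at least 10 only, the SMRC1 values were a median width of 827 bp, 30.8% wide peaks, a gap of 54.2 kb, 28 clusters with 1.25% of peaks, 57.3% central summits and an arm ratio of 12.7. With the 3296 strongest peaks they were 1071 bp, 58.8%, 262 kb, 2 clusters with 0.334% and 60.9%. As many peaks as the NFIC list (chosen after seeing the data) gave 815 bp, 29.6%, 51.3 kb, 38 clusters with 1.55% and 57.2%. Without chromosomes 2, 6, 14, 16, 17 and 20 they were 600 bp, 14.3%, 24.8 kb, 237 clusters with 7.15%, and 49.5%. A width limit of 2000 bp gave 1.15% wide peaks, summit to summit the spacing was 23.4 kb, and 43.8% of summits lay within 50 bp of the midpoint, fewer than the 49.0% of the SATB1 list, so that order turned. Gaps of at most 5 kb gave 121 clusters with 2.29% of peaks, gaps of at most 20 kb gave 1025 with 23.6%, and runs of at least 3 peaks gave 2203 with 28.3%. The arm ratio was 6.32 on whole arms and 11.8 for wide peaks, both 17q over Xq. SMRC1 peaks were the widest and had the largest wide share under each setting that gave a value for the reference lists. The cause of these shifts was not tested, apart from the smaller number of peaks that the first settings leave by construction. No paired analysis was possible because each antibody had 1 library. Without replicates no library could be left out, and the intervals do not cover the spread between experiments.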
